A study of Mus musculus with 10 samples.

Results

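Reactive astrocyte genes are genes that astrocytes switch on or raise after injury. The set described here holds 10 of the 18193 genes read by the array, Gfap, Vim, Serpina3n, Cd44, Steap4, Timp1, S1pr3, Hspb1, Emp1 and Ptx3, and was measured by every probe set of the array whose only annotated gene was one of these. A probe set is the group of short probes on the array that reads one transcript. The rule gave 23 probe sets among 45037 that were not controls, from 1 for Serpina3n and Timp1 to 4 for Cd44. RNA was taken from the whole hippocampus of female SJL/J mice, adult and killed 2 days after an axonal lesion. In the TPlp+AxL group 5 mice had first received by adoptive transfer T cells specific for proteolipid protein, a myelin protein, and were then lesioned. In the AxL group 5 mice had the lesion without the transfer. All 10 mice were lesioned and the labels name no transfer of other T cells, so the comparison shows what the transfer adds to a lesion and not what the lesion does. Each mouse gave 1 array, called here by its group and number (TPlp+AxL 1 to 5, AxL 1 to 5).

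Values are log2 expression values, on which a difference of 1 is a doubling, and array medians ran from 7.88 to 7.92. The tissue label was checked on genes of hippocampal neurons picked after other values had been seen, and Prox1, Wfs1, Neurod6 and Zbtb20 all lay above the median level of the array. All 18 measured markers of astrocytes did too. Arrays TPlp+AxL 1, AxL 3 and AxL 5 held more choroid plexus RNA, with a mean of the 10 measured markers of 9.39 in TPlp+AxL 1, 10.08 in AxL 3 and 9.32 in AxL 5. The other arrays lay at 8.19 to 8.24 in TPlp+AxL and at 8.12 to 8.25 in AxL. Some of the results are also given without these arrays.

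Astrocytes respond to injury and inflammation by enlarging their cytoskeleton, secreting protease inhibitors and acute-phase proteins, and placing adhesion and signalling receptors on their surface. Cytokines of the interleukin-6 family act on them through the shared receptor chain gp130 and the transcription factor STAT3, and Gfap is a classical target of that route in mice. Several of the genes are also active in other cells. Vim and Cd44 are expressed by leukocytes, endothelial cells and fibroblasts, and Ptx3 and Timp1 by endothelial and myeloid cells. In RNA from whole tissue, more cells of a type and more RNA per cell cannot be told apart.

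None of the 23 probe sets passed the threshold between TPlp+AxL and AxL (limma, Benjamini-Hochberg adjusted p under 0.05 over all 45037 probe sets, where 0.835% passed, 0.646% higher and 0.189% lower). The closest was Ptx3, a secreted pattern recognition molecule, at 1.81 times the AxL level with an adjusted p of 0.0532 in limma. Steap4, a metalloreductase, was at 1.69 times and one Cd44 probe set at 1.51 times the AxL level. Gfap, a filament protein widely used as a marker of the reactive state, and Serpina3n differed by 0.02 or less on the log2 scale by their brightest probe sets. At an unadjusted p under 0.05 in limma there were 9 of the 23, against 14.3% of all probe sets, of which 8 were higher (6.54% of all) and 1 lower (7.79% of all). They come from 5 genes, so they are not 9 separate results, and probe sets of a gene did not always agree. The groups did not overlap in 2 of the 23, against 3.59% of all probe sets. In 1 all TPlp+AxL arrays lay above (1.94% of all) and in 1 all lay below (1.64% of all).

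**Figure D1:**
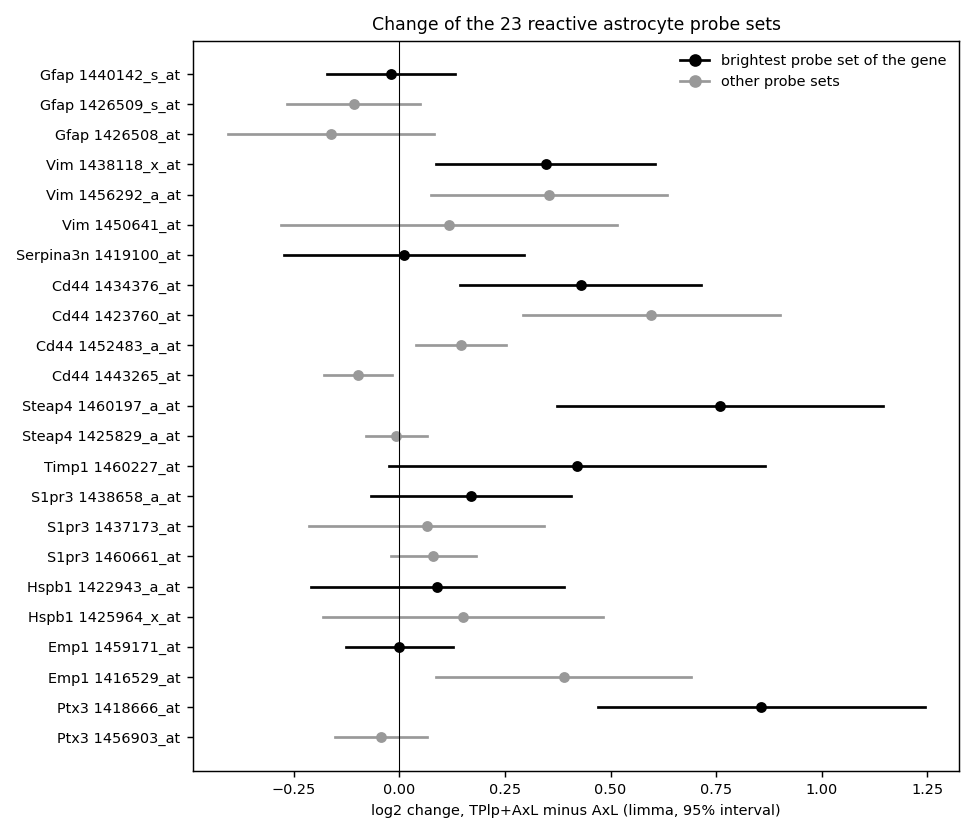
Log2 change (TPlp+AxL minus AxL) of each of the 23 probe sets with its 95% interval from limma, 5 arrays a group; black marks the brightest probe set of each gene and grey the others. The largest changes are those of Ptx3 (0.86), Steap4 (0.76) and Cd44 (0.60), and the second probe sets of Ptx3 and Steap4 lie near 0.

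The proximal promoters are shown for the genes with the patterns that bear on the inducing route: the 3 genes that hold the STAT pattern, and Ptx3, which had the largest change. RefSeq windows of GRCm38.p6, from 250 bases before to 50 after a start site, existed for all 10 genes, with 11 windows because Emp1 has 2. The STAT pattern TTCNNNGAA was found in 3 of these windows, and in 8.30% of all 32851 windows of that length. The AP-1 pattern TGANTCA was found in 1, against 7.81% of all. The heat shock pattern, GAA, TTC and GAA with 2 bases of any kind between them, was found in 0, against 0.603%. All patterns were searched on both strands. In the sequences below, written 5′ to 3′ along the gene's strand, capitals mark STAT and AP-1 matches. The windows are chr11:102897151-102897450 on the minus strand for Gfap, chr5:7960222-7960521 on the plus strand for Steap4, chr6:135362681-135362980 on the plus strand for the first Emp1 window and chr3:66219637-66219936 on the plus strand for Ptx3.
Gfap: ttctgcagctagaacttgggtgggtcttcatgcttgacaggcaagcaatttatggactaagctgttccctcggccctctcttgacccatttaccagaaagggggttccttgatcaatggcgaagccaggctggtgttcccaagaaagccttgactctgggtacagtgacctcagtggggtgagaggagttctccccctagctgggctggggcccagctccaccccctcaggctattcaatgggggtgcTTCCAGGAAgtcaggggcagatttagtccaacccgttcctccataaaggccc
Steap4: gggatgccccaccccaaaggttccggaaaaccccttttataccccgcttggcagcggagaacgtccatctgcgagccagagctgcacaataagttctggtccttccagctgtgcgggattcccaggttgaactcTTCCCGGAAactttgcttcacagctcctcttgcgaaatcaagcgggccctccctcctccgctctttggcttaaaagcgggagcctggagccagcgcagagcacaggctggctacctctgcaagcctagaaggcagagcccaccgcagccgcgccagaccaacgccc
Emp1: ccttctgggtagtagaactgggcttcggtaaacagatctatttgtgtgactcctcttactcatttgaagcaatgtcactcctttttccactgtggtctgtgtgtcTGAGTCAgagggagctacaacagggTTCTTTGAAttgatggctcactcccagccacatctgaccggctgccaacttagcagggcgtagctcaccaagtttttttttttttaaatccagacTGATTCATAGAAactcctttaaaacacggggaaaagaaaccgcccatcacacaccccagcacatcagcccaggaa
Ptx3: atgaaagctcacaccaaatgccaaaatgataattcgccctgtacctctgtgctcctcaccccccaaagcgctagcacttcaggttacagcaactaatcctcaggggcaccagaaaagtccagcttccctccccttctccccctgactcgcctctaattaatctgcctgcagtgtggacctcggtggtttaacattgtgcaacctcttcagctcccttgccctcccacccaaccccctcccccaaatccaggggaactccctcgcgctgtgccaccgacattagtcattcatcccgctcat

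With the start site counted as 0, the STAT match of Gfap (TTCCAGGAA) began at -2 and that of Steap4 (TTCCCGGAA) at -116. The first Emp1 window held STAT matches at -120 (TTCTTTGAA) and -22 (TTCATAGAA) and AP-1 matches at -145 (TGAGTCA) and -25 (TGATTCA), and the last of each overlap by 4 bases. The Ptx3 window, of the gene with the largest change, held no match to any of these patterns. Genes with a STAT match thus included Gfap, with a change of -0.02, as well as Steap4, with 0.76. A match describes letters and not a binding site.

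Filament genes carry the cytoskeletal change of the reactive state. Gfap (1440142_s_at, its brightest probe set) had log2 values of 12.92, 12.68, 12.77, 12.74 and 12.64 in TPlp+AxL 1 to 5, against 12.61, 12.66, 12.88, 12.91 and 12.77 in AxL 1 to 5. The highest array was TPlp+AxL 1 and the lowest AxL 1, and the groups overlapped over nearly their whole range. The change was -0.02 (SE 0.07, 95% interval -0.17 to 0.13, limma adjusted p = 0.918), which leaves room for a level up to 1.10 times or down to 0.889 times that of AxL. The other Gfap probe sets had changes of -0.11 (1426509_s_at, 95% interval -0.27 to 0.05) and -0.16 (1426508_at, 95% interval -0.41 to 0.08). In both, AxL 4 was the highest of the 10 arrays and each TPlp+AxL array lay within or below the AxL range. The sign of the brightest probe set turned with the scaling: it was 0.11 after quantile normalization and 0.11 after cyclic loess normalization, and neither passed.

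Vim encodes vimentin, the partner filament of Gfap protein in reactive astrocytes and the main filament of many mesenchymal cells. Its brightest probe set (1438118_x_at) had 12.34, 11.99, 11.99, 12.10 and 12.08 in TPlp+AxL 1 to 5, against 11.30, 11.74, 11.95, 11.98 and 11.79 in AxL 1 to 5. All TPlp+AxL arrays lay above all AxL arrays, by a gap of only 0.0068 on the log2 scale. The change was 0.35 (SE 0.12, 95% interval 0.09 to 0.61) and did not pass (limma adjusted p = 0.228). It passed after quantile normalization (0.47, limma adjusted p = 0.0489), and after cyclic loess normalization it was 0.46 (limma adjusted p = 0.0624). AxL 1 was the lowest array, and without it the change was 0.23. Probe set 1456292_a_at gave a like change of 0.35 (95% interval 0.08 to 0.63), and 0.24 without AxL 1. Probe set 1450641_at gave 0.12 (95% interval -0.28 to 0.51), with AxL 4 (11.50) above TPlp+AxL 1 (11.44), the highest of the transfer group. That change was 0.0047 without AxL 1 and 0.26 without AxL 4.

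**Figure D2:**
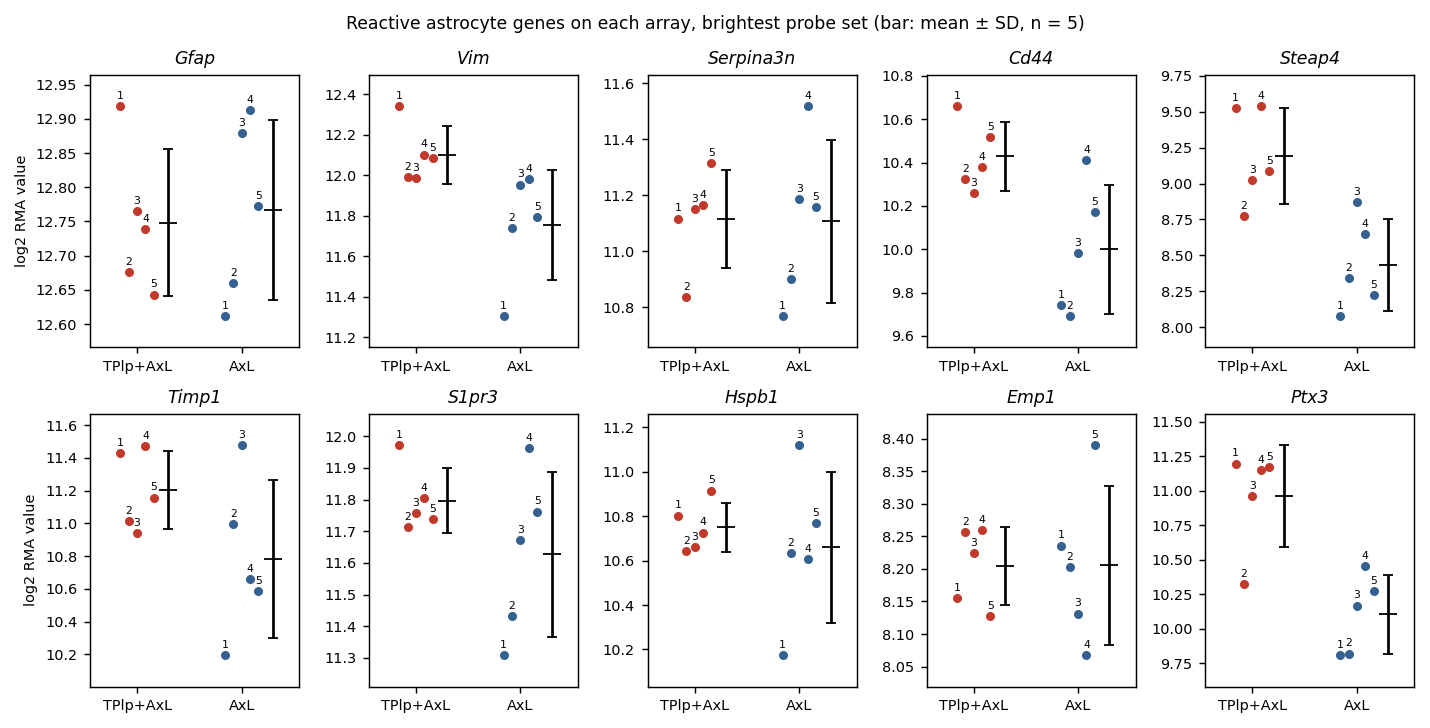
Log2 values of the brightest probe set of each gene on the 10 arrays, TPlp+AxL in red and AxL in blue; figures beside points are the mouse numbers, bars the mean ± SD (n = 5), and each panel has its own scale, which does not start at 0. Ptx3 and Steap4 have 4 TPlp+AxL arrays above every AxL array, while Gfap, Serpina3n and Emp1 overlap throughout.

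Among secreted proteins the largest change was that of Ptx3, the long pentraxin of the acute-phase response. Ptx3 (1418666_at) had 11.20, 10.32, 10.96, 11.15 and 11.17 in TPlp+AxL 1 to 5, against 9.81, 9.82, 10.17, 10.46 and 10.27 in AxL 1 to 5. TPlp+AxL 1, 3, 4 and 5 lay above every AxL array, and TPlp+AxL 2 lay inside the AxL range. The mean was 10.96 ± 0.37 in TPlp+AxL and 10.10 ± 0.28 in AxL (SD, n = 5 each). The change of 0.86 (SE 0.18, 95% interval 0.47 to 1.24) had a limma adjusted p of 0.0532. The call turned on choices of processing. Ptx3 passed after quantile normalization (0.95, limma adjusted p = 0.0115) and after cyclic loess normalization (0.95, limma adjusted p = 0.0127). It also passed without AxL 4 (0.94, limma adjusted p = 0.0368) and without TPlp+AxL 2 (1.02, limma adjusted p = 0.00321), and the limma adjusted p was 0.154 without TPlp+AxL 4. Without the 3 arrays rich in choroid plexus RNA the change was 0.88 (limma adjusted p = 0.356), in a fit of 7 arrays in which 1 of the 45037 probe sets passed.

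TPlp+AxL 2, the low Ptx3 array, also had the lowest mean of its group for inflammation-induced astrocyte genes, 9.63, against 10.17 to 10.62 on the other TPlp+AxL arrays and 9.14 to 9.45 in AxL. The part of that difference in the Ptx3 value was not tested. A second Ptx3 probe set, 1456903_at, had a change of -0.04 (95% interval -0.15 to 0.06, limma adjusted p = 0.700). Its level lay below the median of the array, at 7.43 ± 0.07 in TPlp+AxL and 7.47 ± 0.09 in AxL (SD, n = 5 each). No TPlp+AxL array exceeded the highest AxL array in that probe set, so the Ptx3 probe sets disagreed.

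Timp1 encodes a secreted inhibitor of matrix metalloproteinases and is a sharply induced gene of injured astrocytes. Its only probe set (1460227_at) had 11.43, 11.02, 10.94, 11.47 and 11.16 in TPlp+AxL 1 to 5, against 10.20, 10.996, 11.48, 10.66 and 10.59 in AxL 1 to 5. The highest value of all was AxL 3 and the lowest AxL 1, so the AxL group spanned the whole range. The change was 0.42 (SE 0.20, 95% interval -0.03 to 0.86, limma adjusted p = 0.373). It was 0.27 without AxL 1 and 0.59 without AxL 3, and did not pass in either case. In the mouse assembly GRCm38.p6 Timp1 lies within the bounds of Syn1, a gene of synaptic vesicles, which fell by 0.37 (SE 0.07, limma adjusted p = 0.0280). That call was lost after quantile normalization and after cyclic loess normalization. It was also lost without the 3 arrays rich in choroid plexus RNA. In that fit 1 of the 45037 probe sets passed, so this loss says little about Syn1.

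Serpina3n, a secreted inhibitor of serine proteases, is among the strongest markers of reactive astrocytes in mice. It had 11.12, 10.83, 11.15, 11.17 and 11.31 in TPlp+AxL 1 to 5, against 10.77, 10.90, 11.19, 11.52 and 11.16 in AxL 1 to 5. The AxL arrays held both the lowest and the highest value. The change was 0.01 (SE 0.13, 95% interval -0.27 to 0.29, limma adjusted p = 0.977), an interval from 0.827 to 1.23 times the AxL level. It was -0.02 after subtraction of array medians, and ran from -0.07 without AxL 1 to 0.11 without AxL 4.

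Of the membrane proteins, Cd44, the receptor for hyaluronan, was measured by 4 probe sets. Its brightest (1434376_at) had 10.66, 10.32, 10.26, 10.38 and 10.52 in TPlp+AxL 1 to 5, against 9.74, 9.69, 9.98, 10.41 and 10.17 in AxL 1 to 5. Only AxL 4 reached into the TPlp+AxL range. The change was 0.43 (SE 0.13, 95% interval 0.14 to 0.71, limma adjusted p = 0.181).

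The next Cd44 probe set in brightness (1423760_at) had 9.71, 9.38, 9.46, 9.84 and 9.42 in TPlp+AxL 1 to 5, against 8.92, 8.56, 8.94, 9.41 and 9.01 in AxL 1 to 5. AxL 4 again was the array that overlapped, lying just above TPlp+AxL 2. The change was 0.60 (SE 0.14, 95% interval 0.29 to 0.90, limma adjusted p = 0.0839). It passed without AxL 4 (0.71, limma adjusted p = 0.0187), after quantile normalization (0.65, limma adjusted p = 0.0262) and after cyclic loess normalization (0.65, limma adjusted p = 0.0278). The same normalizations also brought 1434376_at past the threshold, with limma adjusted p of 0.0389 (quantile) and 0.0410 (cyclic loess). Without the 3 arrays rich in choroid plexus RNA the changes were 0.42 (1434376_at) and 0.56 (1423760_at).

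The remaining Cd44 probe sets were among the dim ones of the array. Probe set 1452483_a_at, at the percentile 19.2 of all levels, had a change of 0.15 (95% interval 0.04 to 0.25), and 1443265_at, at the percentile 5.21, a change of -0.10 (95% interval -0.18 to -0.02). The last was the other probe set without overlap, with 6.31 to 6.46 in TPlp+AxL below 6.48 to 6.54 in AxL. Cd44 probe sets thus differed in sign, with the brighter ones higher and the dimmest lower in TPlp+AxL, none past the threshold.

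Steap4 encodes a metalloreductase of the plasma membrane that inflammatory cytokines induce. Its brightest probe set (1460197_a_at) had 9.53, 8.78, 9.02, 9.54 and 9.09 in TPlp+AxL 1 to 5, against 8.08, 8.34, 8.87, 8.65 and 8.22 in AxL 1 to 5. TPlp+AxL 1 and 4 stood highest, and only TPlp+AxL 2 lay below the top AxL array, AxL 3. The change was 0.76 (SE 0.18, 95% interval 0.37 to 1.15, limma adjusted p = 0.0832). It passed without TPlp+AxL 2 (0.86, limma adjusted p = 0.0498) and with array weights (0.85, limma adjusted p = 0.0396), and after quantile normalization it did not (0.78, limma adjusted p = 0.0606). The second probe set, 1425829_a_at, had 8.04 ± 0.04 in TPlp+AxL and 8.05 ± 0.03 in AxL (SD, n = 5 each), a change of -0.01 (95% interval -0.08 to 0.07). Its spread between mice was a small part of that of the first probe set.

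S1pr3, a receptor for the lipid sphingosine 1-phosphate, differed little. The brightest of its 3 probe sets (1438658_a_at) had 11.97, 11.71, 11.76, 11.80 and 11.74 in TPlp+AxL 1 to 5, against 11.31, 11.43, 11.67, 11.96 and 11.76 in AxL 1 to 5. TPlp+AxL 1 lay just above the highest AxL array, AxL 4, and the other TPlp+AxL arrays lay in the upper part of the AxL range. The change was 0.17 (SE 0.11, 95% interval -0.07 to 0.41, limma adjusted p = 0.487), and it was 0.09 without AxL 1 and 0.25 without AxL 4. The other probe sets had changes of 0.06 (1437173_at, 95% interval -0.21 to 0.34) and 0.08 (1460661_at, 95% interval -0.02 to 0.18). That of 1437173_at was 0.0087 without AxL 2 and 0.19 without AxL 4.

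Emp1, a small membrane protein related to the peripheral myelin proteins, was read by probe sets that disagreed. The slightly brighter one (1459171_at) had 8.20 ± 0.06 in TPlp+AxL and 8.21 ± 0.12 in AxL (SD, n = 5 each), a change of -0.00066 (95% interval -0.13 to 0.13). The other (1416529_at) had 8.44, 8.14, 8.06, 8.18 and 8.25 in TPlp+AxL 1 to 5, against 7.43, 7.60, 7.99, 8.27 and 7.82 in AxL 1 to 5. AxL 4 was again the AxL array inside the range of the transfer group. Its change was 0.39 (SE 0.14, 95% interval 0.09 to 0.69, limma adjusted p = 0.243).

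Hspb1 encodes a small heat shock protein that binds unfolded proteins and filaments. Its brightest probe set (1422943_a_at) had 10.80, 10.64, 10.66, 10.73 and 10.92 in TPlp+AxL 1 to 5, against 10.17, 10.63, 11.12, 10.61 and 10.77 in AxL 1 to 5. AxL 1, 2 and 4 lay below the TPlp+AxL range, AxL 3 above it and AxL 5 inside it. The change was 0.09 (SE 0.14, 95% interval -0.21 to 0.39, limma adjusted p = 0.787), and it was -0.03 without AxL 1, 0.20 without AxL 3 and 0.27 without the 3 arrays rich in choroid plexus RNA. The second probe set (1425964_x_at) followed it, with a change of 0.15 (95% interval -0.18 to 0.48), 0.014 without AxL 1 and 0.27 without AxL 3.

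Signal level moved with the changes. Over all probe sets, changes had a median of 0.03 where the mean level was 7 to 8, -0.10 at levels of 10 to 11, -0.11 at levels of 11 to 12 and -0.14 over 12. Only 4 of the 23 reactive astrocyte probe sets lay below the median level, and the other 19 lay at higher levels. After cyclic loess normalization, which left -0.0086 at levels of 10 to 11, the median change of the 10 genes by their brightest probe sets was 0.37, against 0.26 as deposited. It was 0.38 after quantile normalization and 0.23 after median subtraction. Positive changes were found for 8 of the 10 genes as deposited, 9 after quantile or cyclic loess normalization and 7 after median subtraction. Over all 18193 genes the median was -0.03 as deposited and -0.01 after cyclic loess normalization. With quantile normalization 4 of the 23 probe sets passed (Vim, 2 of Cd44, and Ptx3), and with cyclic loess normalization 3 did (2 of Cd44, and Ptx3). Of all 45037 probe sets, 406 passed after quantile normalization (340 higher) and 391 after cyclic loess normalization (348 higher).

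**Figure D3:**
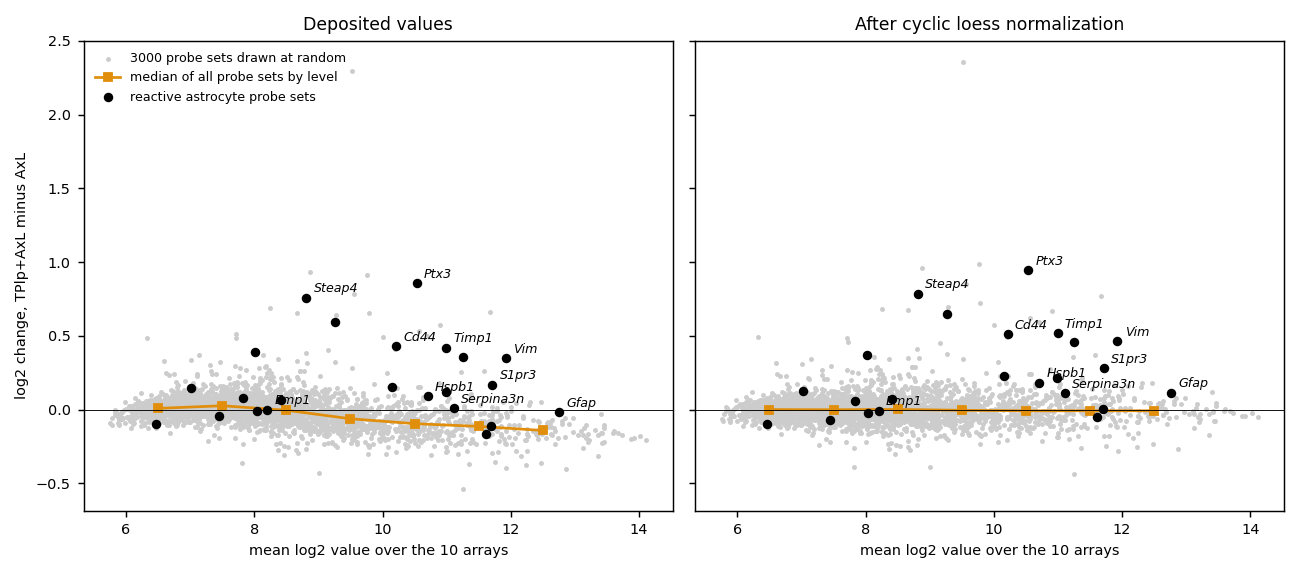
Log2 change (TPlp+AxL minus AxL) against the mean log2 value over the 10 arrays, for the deposited values (left) and after cyclic loess normalization (right); grey points are 3000 probe sets drawn at random, squares the median of all probe sets in each range of level, and black points the reactive astrocyte probe sets, labelled for the brightest of each gene. The medians run down to -0.14 at the top levels on the left and stay near 0 on the right, where Gfap lies at 0.11 and Ptx3 at 0.95.

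Within the AxL group, many of the genes put the mice in a like order. AxL 1 was the lowest of the 5 AxL arrays in 15 of the 23 probe sets, while it was the lowest in 12.2% of all probe sets. AxL 4 was the highest of the group in 14 of the 23, against 29.9% of all. In TPlp+AxL, mouse 1 was the highest in 12 of the 23, against 25.0% of all, and mouse 2 the lowest in 9, against 23.4%. AxL 3 was the highest AxL array in 5 probe sets, those of Timp1 and Hspb1, the brightest of Steap4 and the dimmest of Cd44, and AxL 2 and AxL 5 were the highest in 2 each. The spread was larger in AxL than in TPlp+AxL in 18 of the 23 probe sets, and in 67.7% of all probe sets. Averaged over the brightest probe sets of the 10 genes, arrays ran from 10.66 (TPlp+AxL 2) to 11.01 (TPlp+AxL 1) in the transfer group, against 10.22 (AxL 1) to 10.74 (AxL 3) in AxL, and these ranges overlapped.

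**Figure D4:**
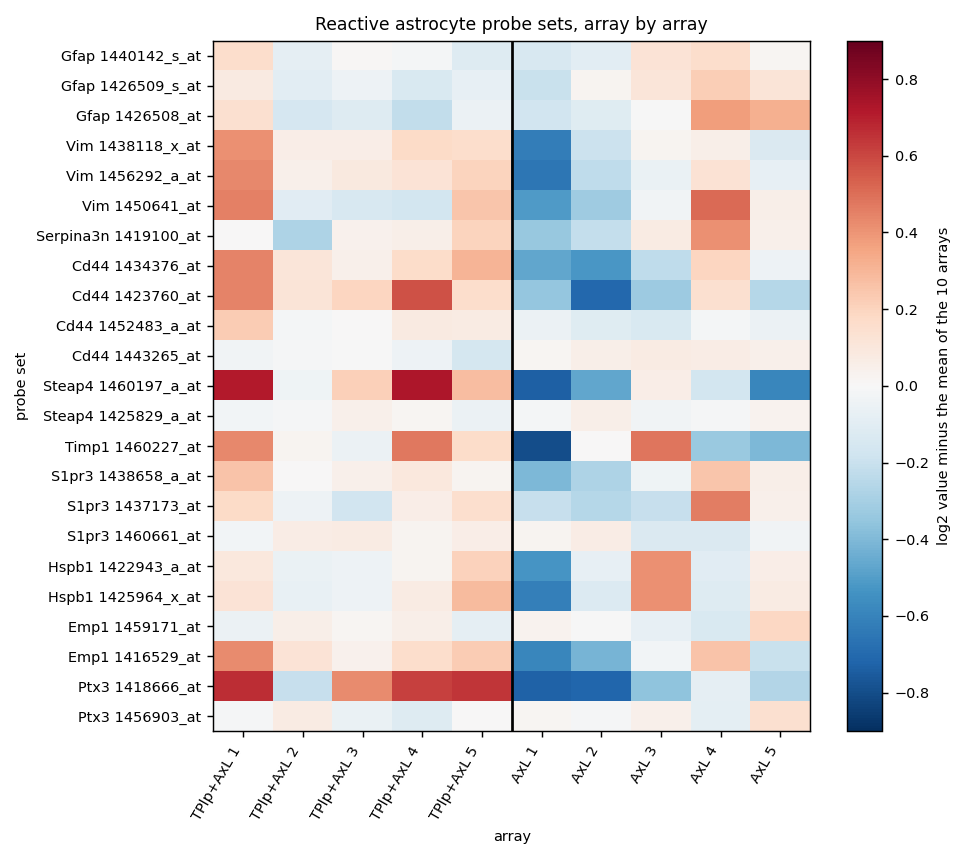
Log2 value of each reactive astrocyte probe set minus its mean over the 10 arrays, TPlp+AxL arrays left of the line and AxL arrays right of it; red is above and blue below the mean. AxL 1 is the lowest array of its group in 15 of the 23 probe sets, and flat rows such as Steap4 1425829_a_at show probe sets with little spread on any array.

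Some markers of blood-derived cells rose in TPlp+AxL beside these changes. Among all 18193 genes, each read by its brightest probe set, 1.26% passed, 0.978% higher and 0.280% lower, and 17.9% had an unadjusted p under 0.05. Of 8 measured T cell and leukocyte markers 3 rose, with the list mean at 8.57 to 8.86 in TPlp+AxL against 8.30 to 8.43 in AxL. Ptprc, the pan-leukocyte antigen CD45, rose by 0.78 (limma adjusted p = 0.0110) beside Cd3d (0.63) and Cd3g (0.87) of the T cell receptor complex, and the other 5 had changes of 0.00035 to 0.40. Of 8 neutrophil and monocyte markers 4 rose, Chil3 (2.18), Plac8 (1.92), S100a9 (1.18) and S100a8 (1.14), with the list mean at 8.92 to 9.12 in TPlp+AxL against 8.07 to 8.38 in AxL, and the other 4 had changes of -0.05 to 0.13. Lyz2, the lysozyme of myeloid cells, rose by 0.90 and was the 1 of 11 microglia and macrophage markers to pass. The others had changes of -0.27 (Tmem119) to 0.40 (Aif1). Of the 11, 6 were negative, and the list median was -0.03. Without the 3 arrays rich in choroid plexus RNA, 0 T cell and leukocyte markers, 1 neutrophil and monocyte marker and 0 microglia and macrophage markers passed in limma. In that fit 1 of all 45037 probe sets passed, so the lost calls say little about these markers. The median change was 0.33 without these arrays and 0.26 with them for T cell and leukocyte markers. For neutrophil and monocyte markers it was 0.58 and 0.64. By their mean over the 10 arrays, 6 of the 8 T cell and leukocyte markers and 6 of the 8 neutrophil and monocyte markers lay above the median level. The array gives a value above 0 to every probe set, so no marker can be read as absent. The part of such cells in the values of Cd44, Vim, Ptx3 and Timp1 was not tested.

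General astrocyte markers, some of which are known to change in reactive astrocytes, lay mostly below 0. None of 18 passed over all probe sets in limma (7 at an unadjusted p under 0.05). Of the 18, 2 were positive, against 37.3% of all genes, and the median change was -0.15, or -0.03 after cyclic loess normalization. These markers are bright, with a median level at the percentile 95.8, so the share over genes of all levels is an unlike measure. Over all probe sets the median change was -0.11 at levels of 11 to 12 and -0.14 over 12. The list mean ran from 11.20 to 11.47 in TPlp+AxL, against 11.32 to 11.63 in AxL. Those with the smallest p were the gap junction gene Gja1 (-0.17, limma adjusted p = 0.101) and Slco1c1 (-0.56, limma adjusted p = 0.114). The other Gja1 probe sets had changes of -0.05 to 0.03. Slco1c1 encodes a transporter that brain endothelium also expresses.

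Other genes of the reactive state were each read by their brightest probe set. By that measure the median change of all genes was -0.03. Of 5 further genes that astrocytes raise after most injuries 1 rose, the chemokine Cxcl10 (1.56, limma adjusted p = 0.0109), and the median was 0.30. Of 9 measured genes that astrocytes raise after inflammation 3 rose, the interferon-induced GTPases Iigp1 (2.45) and Gbp2 (2.39) and the proteoglycan Srgn (0.78), with a median of 0.78. Of 10 genes that astrocytes raise after ischaemia 1 rose, the glycosyltransferase B3gnt5 (0.23, limma adjusted p = 0.0178), with a list median of 0.19. Emp1 and Ptx3 are usually also assigned to this group. The B3gnt5 means, 7.72 in TPlp+AxL and 7.49 in AxL, lay below the array medians, and its other probe set had a change of -0.05. Of the ligands, receptors and signal carriers of the gp130 route 2 of 15 rose, the cytokine Il6 (1.70, limma adjusted p = 0.00221) and the feedback inhibitor Socs3 (1.24, limma adjusted p = 0.00780), with a median of 0.07. With the 3 arrays rich in choroid plexus RNA left out, 0 genes of these lists passed in limma. Over the whole array 1 probe set did, with 4743 at an unadjusted p under 0.05. Which cells of the hippocampus gave the values of these genes, astrocytes or others, was not tested.

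Few partners of the 10 genes by function passed the threshold. Among 13 intermediate filaments and linkers 0 passed in limma (4 at an unadjusted p under 0.05), with a median of -0.08, and the smallest p were those of the neurofilaments Nefl (-0.22, limma adjusted p = 0.146) and Nefm (-0.25, limma adjusted p = 0.169). Of 14 metalloproteinases and inhibitors beside Timp1, 1 rose, Mmp8 of neutrophils (0.24, limma adjusted p = 0.0370). Its means, 7.52 in TPlp+AxL and 7.28 in AxL, lay below the array medians. Mmp8 did not pass after quantile or cyclic loess normalization or median subtraction. Among 11 hyaluronan synthases and other partners of Cd44 0 passed in limma (4 unadjusted), led by the synthases Has2 (0.15) and Has1 (0.13), with a median of 0.06. Among 9 other genes of the sphingosine 1-phosphate system 0 passed in limma (2 unadjusted), led by the receptors S1pr2 (0.16) and S1pr5 (-0.18), with a median of -0.05. Among 11 other small heat shock proteins and chaperones 0 passed in limma (1 unadjusted), led by Cryab (-0.24) and Hsph1 (-0.20), with a median of -0.05.

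**Figure D5:**
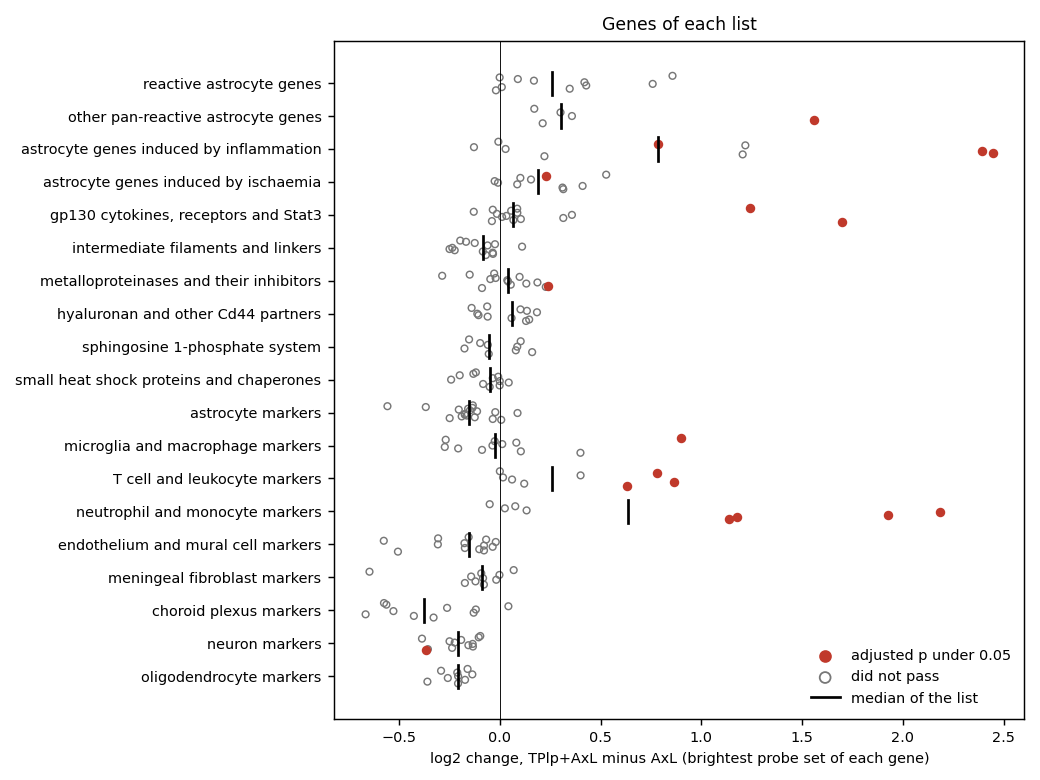
Log2 change (TPlp+AxL minus AxL) of each gene of each list, read by its brightest probe set; filled points passed the threshold (limma, adjusted p under 0.05 over all probe sets), open points did not, and bars mark the list medians. The reactive astrocyte genes have 0 filled points and a median of 0.26, and the list of astrocyte genes induced by inflammation has 3 filled points and a median of 0.78.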

How the data were processed

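The authors deposited log2 expression values per probe set and the submitters' processing notes name RMA as their method. Its software is not given in the sources used here. From these values, 64 control probe sets were left out and 45037 were tested with no filter by limma 3.58.1 in R 4.3.3 (lmFit and eBayes, two-sided, Benjamini-Hochberg adjusted p under 0.05 over all probe sets), 5 TPlp+AxL arrays against 5 AxL arrays. The number of arrays limits the precision. Where p-values are given, they set the group difference against the spread between arrays, each from 1 mouse. In limma that spread is drawn toward a value shared by all probe sets. Probe sets were named from the platform's annotation, with symbols of the other lists updated through Entrez identifiers (34741 of the 34945 probe sets with 1 symbol matched). A gene of the 19 lists, the reactive astrocyte genes among them, was read by the probe set of highest mean. Named genes are the 10 reactive astrocyte genes with every probe set and, from each other list, up to 4 genes past the threshold, taken by size of change, and in lists with none past it the 2 of lowest p. Remaining lists served as checks on other cells, and of these 0 of 13 endothelial and mural genes passed in limma (5 unadjusted; median -0.15; Rgs5 -0.58, Tek -0.31), 0 of 10 meningeal fibroblast genes (0 unadjusted; median -0.09; Col1a2 -0.17, Col1a1 -0.08), 0 of 10 choroid plexus genes (0 unadjusted; median -0.38; Kl -0.43, F5 -0.57), 0 of 9 oligodendrocyte genes (6 unadjusted; median -0.21; Mobp -0.36, Mag -0.26) and 1 of 12 neuronal genes, Syn1 (8 unadjusted; median -0.21). The neuronal count was 2 after median subtraction and 0 after quantile (median -0.05) or cyclic loess normalization (median -0.07). Of the 13 endothelial and mural genes, all negative as deposited, 2 were lower after median subtraction, 2 after quantile and 1 after cyclic loess normalization. The genes and lists were chosen with earlier results of these data known. The script was tested on simulated data. Alternatives were another variance model, filter, scaling, weighting, probe set choice, threshold, a replicate block and each array left out; leaving out 3 arrays together was added after the data were seen.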

Additional observations from a re-analysis of the deposited data

Results flagged for a closer look

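Among the 46 combinations of a probe set and a group, 2 held an array far from the others of its group by Dixon's criterion at 95% (a gap over 0.710 of the range), and chance alone flags about 1 in 20. Ptx3 (1418666_at) had a log2 value of 10.32 in TPlp+AxL 2, against 10.96 to 11.20 on the other TPlp+AxL arrays. The dimmest Cd44 probe set (1443265_at) had 6.31 in TPlp+AxL 5, against 6.42 to 6.46 on the other TPlp+AxL arrays.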

How the results depend on the processing

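Counts of reactive astrocyte probe sets past the threshold moved with the processing. Against 0 of 23 as reported, the higher ones numbered 1 with a trended and robust variance, with only the brighter probe sets tested (of 19) and with 1 probe set per gene (of 10), in each case Ptx3 (limma adjusted p = 0.0491, 0.0409 and 0.0346). They numbered 4 after quantile normalization, 3 after cyclic loess normalization, 3 with array weights and 3 at an adjusted p under 0.10. With 1 array left out they ran from 0 to 2, the 2 being reached without AxL 4 (Cd44 and Ptx3) or without TPlp+AxL 2 (Steap4 and Ptx3). They stayed at 0 after median subtraction and without the 3 arrays rich in choroid plexus RNA. The count was also 0, of 13, without probe sets whose names end in _s_at, _x_at or _a_at. That filter removes the brightest probe sets of Gfap, Vim, Steap4, S1pr3 and Hspb1, and leaves no probe set of Steap4 or Hspb1. The lower ones were 0 under every alternative run. Of all 45037 probe sets 376 passed, 406 after quantile normalization, 391 after cyclic loess normalization and 479 after median subtraction. There were 425 with a trended and robust variance, 753 with array weights, 757 at an adjusted p under 0.10 and 1 without the 3 arrays. Among the brighter probe sets 261 of 22518 passed, with 1 probe set per gene 299 of 18193, and with the filter on names 267 of 36082. The count was 185 (without TPlp+AxL 4) to 460 (without AxL 2) with 1 array left out. Leaving out AxL 5 gave 220, TPlp+AxL 3 gave 240 and TPlp+AxL 5 gave 243. Mouse numbers are shared between groups, but the labels do not say that they pair mice, and deviations of same-numbered arrays correlated from -0.22 to 0.36. With the replicate block 2 of the 23 passed, Cd44 1423760_at (limma adjusted p = 0.0195) and Ptx3 (limma adjusted p = 0.0264), and 241 of all.

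Signs turned in probe sets with small changes. The brightest Gfap probe set was 0.11 after quantile and 0.11 after cyclic loess normalization, 0.011 with array weights and -0.062 to 0.017 with 1 array left out, and Gfap 1426509_s_at was 0.0026 after cyclic loess. Serpina3n was -0.018 after median subtraction and -0.074 to 0.11 with 1 array left out, and Hspb1 1422943_a_at was -0.032 to 0.20 with 1 array left out. Steap4 1425829_a_at was 0.0058 with array weights and -0.020 to 0.0045 with 1 array left out. Emp1 1459171_at was 0.049, S1pr3 1437173_at -0.0018 and Ptx3 1456903_at 0.0027 without the 3 arrays, and Emp1 1459171_at was -0.035 to 0.045 with 1 array left out. The cause of these shifts was not tested. No value of depth exists for arrays, and low signal limits what the dimmer Ptx3 probe set and the 2 dimmest Cd44 probe sets can show.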
